A study of Mus musculus with 6 samples.

Results

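Transcripts of the machinery that folds, checks and degrades proteins in the endoplasmic reticulum (ER) were followed in mouse liver across a diet model and a carbon tetrachloride (CCl4) model of liver disease. The set holds 41 genes, listed by name for their role and matched on the gene symbol, of 18444 genes in the deposited files. It comprises 14 chaperones and lectin or prolyl isomerase helpers, 9 enzymes of disulfide bond formation, 9 genes of ER-associated degradation, 3 genes of the sensor group and 6 genes of protein translocation. The sensor group holds the stress sensors Atf6 and Ern1, and Xbp1, which encodes a transcription factor. All 41 had reads in all 6 libraries. The study asked how JT003, a peptide agonist of the adiponectin receptors AdipoR1 and AdipoR2, acts in these models. Livers came from male mice labelled as C57BL/6 (C57BL/6J in the study's text) and as 6 to 8 weeks old, which were fasted before sacrifice per the methods. The methods give this age for the mice used, with 16 weeks of diet or 6 weeks of CCl4. The age at sacrifice is not stated and may differ between the models. In the diet model the control library (SD) carries the label of a chow diet, the HFD library that of NASH, and the HFD plus JT003 library that of NASH after treatment. The study's text names the sequenced groups by the SD and HFD diets, the latter also with JT003, and the methods give 16 weeks for the high fat diet. The same methods use the word NASH for a protocol that combines this diet with a methionine and choline deficient one in the last 4 weeks, so that the label and the group names differ. JT003 was injected during 4 weeks of the diet. In the CCl4 model, mice received corn oil, CCl4 in corn oil for 6 weeks, or CCl4 with JT003 during 3 weeks. Each condition has 1 library, and the number of mice behind each library is not stated.

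Secreted and membrane proteins enter the ER through the Sec61 channel, are glycosylated and folded there with the help of chaperones such as BiP (Hspa5) and of disulfide isomerases, and are returned to the cytosol for degradation when they fail to fold. When unfolded proteins accumulate, the unfolded protein response raises the transcription of this machinery. Its sensors are IRE1α (Ern1), which splices the messenger RNA of the transcription factor XBP1, ATF6, whose cytosolic part is released by cleavage and enters the nucleus, and PERK, which slows translation and induces ATF4 and CHOP. Hepatocytes secrete most plasma proteins, including albumin, and keep a large ER for this purpose.

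The libraries held 19374236 to 20184557 reads assigned to genes. Levels are given as FPKM (read fragments relative to transcript length and library depth) and ratios between libraries as log2 ratios of counts after TMM scaling of library sizes within a model. The hepatocyte markers were abundant in every library and took 8.08% to 10.4% of the reads, most of them from albumin (Alb). In HFD over SD, 6 of the 8 had intervals below 0, with a median log2 ratio of -0.36, and Cps1, the first enzyme of the urea cycle, was called lower at -1.15. In CCl4 over corn oil 6 of the 8 were also below 0, with a median of -0.31. There too 1 of the 8 was called lower, and the lowest ratio was -1.09. The summed share of the reads, which is not TMM scaled, was not lower in HFD or CCl4 than in its control. The part of hepatocytes in the levels of the ER genes was not tested. In bulk liver, fewer cells of a type and less RNA per cell cannot be told apart. A gene was called where an exact binomial test on the reads of 2 libraries gave an adjusted p under 0.001 and the absolute log2 ratio was at least 1, which is a change of 2 times or more. With no replicates, this test compares the libraries and not the conditions, and intervals (95%, Clopper-Pearson) cover counting error only.

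The levels spread over a wide range. In SD the summed level was 2281 FPKM, of which P4hb, the protein disulfide isomerase that is also a subunit of collagen prolyl hydroxylase, gave 493.13 FPKM. It was followed by the lectin chaperone calreticulin (Calr, 303.15 FPKM), Hspa5 (157.92 FPKM) and Hsp90b1, the ER member of the HSP90 family (143.66 FPKM). The lowest levels in SD were those of Derl3 at 4.37 FPKM and Ero1l at 4.74 FPKM. The 41 genes together took 0.596% of the reads in SD, 1.03% in HFD and, after JT003, 0.699%. In the CCl4 model the shares were 0.579% for corn oil, 0.657% for CCl4 and, with JT003 added, 0.569%. The HFD library thus stood above the other libraries. By the rank of FPKM among all genes, Hspa5 moved from 465 in SD to 114 in HFD and was at 317 in HFD plus JT003.

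**Figure D1:**
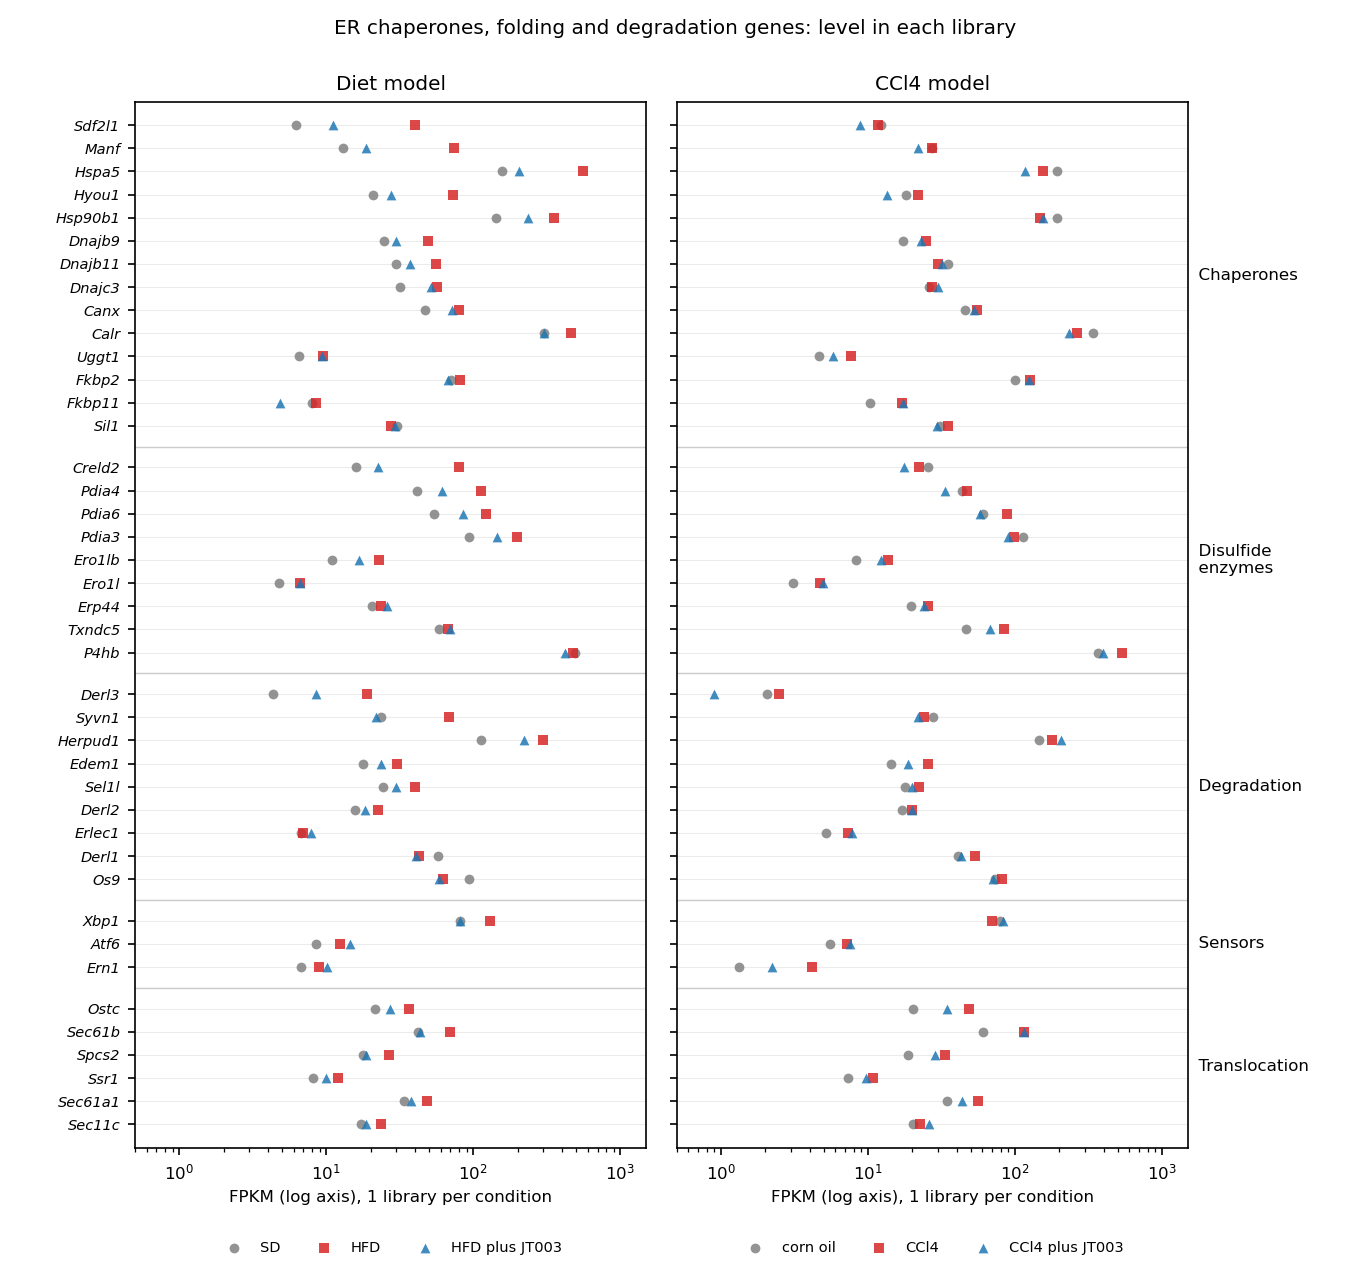
FPKM of each of the 41 genes in the 6 libraries, on a log axis, with the diet model on the left and the CCl4 model on the right; each symbol is 1 library. HFD (squares, left) lies to the right of the other diet libraries for most chaperones, for example Hspa5 at 553.84 FPKM against 157.92 FPKM in SD, while the CCl4 library shows no such gap for Hspa5 (154.81 FPKM).

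The promoters of some of these genes carry the letters of the ER stress response element (ERSE), the sequence to which ATF6, together with the CCAAT-binding factor NF-Y, is known to bind. RefSeq promoter windows, from 250 bases before to 50 bases after the transcription start, were at hand for 32 of the 41 genes (GRCm38.p6). Manf, Hyou1, Sil1, Derl1, Erlec1, Atf6, Sec61a1, Sec11c and Ostc had no entry. The letters searched on both strands were CCAAT, any 9 bases, CCACG (ERSE), ATTGG, any 1 base, CCACG (ERSE-II), and TGACGTGG (UPRE). ERSE was in the window of 10 of the 32 genes (31.25%), against 24 of the 14163 genes of the files with a window (0.17%) and 0.119% of all 32851 windows. The 24 include these 10, with 14 outside the set. The set was listed by name for its role, so the share describes the list and was not tested. ERSE-II was in 2 of 32, against 0.0636% of the genes, and UPRE in 1 of 32, against 0.946%. In all, 13 of 32 held at least 1 of these motifs, against 1.17% of the genes, and none of the 13 held motifs of different kinds.

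The 11 ERSE matches, of which Hsp90b1 has a pair, are shown because 6 of the 10 genes that hold them rose in HFD. Each is read 5′ to 3′ from its CCAAT end, with CCAAT and CCACG in capitals.
Hspa5, chr2:34772025-34772043, plus strand: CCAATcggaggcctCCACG
Hsp90b1, chr10:86705638-86705656, minus strand: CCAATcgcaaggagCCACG
Hsp90b1, chr10:86705533-86705551, plus strand: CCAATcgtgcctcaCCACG
Creld2, chr15:88819520-88819538, minus strand: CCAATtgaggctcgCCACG
Derl3, chr10:75893242-75893260, minus strand: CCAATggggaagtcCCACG
Syvn1, chr19:6046532-6046550, plus strand: CCAATcggcggtagCCACG
Pdia6, chr12:17266491-17266509, plus strand: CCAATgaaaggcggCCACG
Ero1lb, chr13:12565682-12565700, minus strand: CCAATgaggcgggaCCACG
Dnajc3, chr14:118937827-118937845, plus strand: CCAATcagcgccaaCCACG
Canx, chr11:50325800-50325818, minus strand: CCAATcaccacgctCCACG
Calr, chr8:84847075-84847093, plus strand: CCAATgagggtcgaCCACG
The 9 bases between CCAAT and CCACG differed in all 11 and held 6 or 7 G or C. Of the 11 matches, 6 were on the strand of their gene and 5 on the other, and they began 44 to 212 bases before the start. Herpud1 and Dnajb11 instead held ERSE-II, as ATTGGgCCACG and ATTGGcCCACG.

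The longer context is shown for Hspa5 and for Syvn1, a chaperone and a degradation gene that rose in HFD, as the 220 bases before the start with ERSE in capitals, on the strand of the gene (plus in both).
Hspa5, chr2:34771870-34772089: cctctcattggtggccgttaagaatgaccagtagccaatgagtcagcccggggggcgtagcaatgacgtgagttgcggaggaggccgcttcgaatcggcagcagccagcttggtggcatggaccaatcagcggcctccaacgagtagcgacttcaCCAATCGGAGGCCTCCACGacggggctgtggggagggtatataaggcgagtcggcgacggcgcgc
Syvn1, chr19:6046356-6046575: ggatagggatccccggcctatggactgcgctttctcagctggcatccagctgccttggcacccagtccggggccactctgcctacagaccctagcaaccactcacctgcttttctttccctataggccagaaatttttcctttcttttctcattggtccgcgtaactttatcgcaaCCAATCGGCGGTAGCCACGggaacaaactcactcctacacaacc
The ERSE letters began 65 bases before the start in Hspa5 and 44 bases before it in Syvn1.

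In the comparison of HFD with SD, 11 of the 41 genes rose and 0 fell. Of all genes tested, 2.92% were called higher and 2.46% lower. The median log2 ratio of the 41 genes was 0.60, against 0.00 over all genes, and 35 of the 41 were above 0. The genes that rose were 5 chaperones, 3 disulfide enzymes and 3 degradation genes. The largest adjusted p among them in the exact binomial test was 3.34e-50, for Derl3.

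Among the chaperones, Sdf2l1, a partner of BiP and its J-domain proteins, showed the largest ratio. It was at 6.19 FPKM in SD, 40.3 FPKM in HFD and 11.09 FPKM with JT003. HFD was high and the other diet libraries were low, with a log2 ratio of 2.56 (2.32 to 2.85) for HFD over SD. Manf, a small secreted protein that stays in the ER with BiP until stress, was at 13.09, 73.6 and 18.52 FPKM in the same order, and rose by 2.36 on the log2 scale (2.24 to 2.50). Hspa5 was at 157.92 FPKM in SD, 553.84 FPKM in HFD and 203.85 FPKM with JT003. Its log2 ratio of HFD over SD was 1.69 (1.65 to 1.72), a fold of 3.22. Hyou1, a large HSP70 relative that exchanges the nucleotide of BiP, had the same ratio of 1.69 (1.61 to 1.76), from 20.8 FPKM in SD to 72.89 FPKM in HFD. Hsp90b1 rose from 143.66 to 351.59 FPKM, with a ratio of 1.17 (1.13 to 1.21).

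The J-domain partners of BiP, which stimulate its ATPase, stayed under the threshold. Dnajb9 had a log2 ratio of 0.87, Dnajb11 of 0.77 and Dnajc3 of 0.73. The calnexin cycle, which holds glycoproteins through their sugars, had lower ratios: 0.63 for the lectin calnexin (Canx), 0.49 for Calr and 0.41 for Uggt1, which marks unfolded glycoproteins for another round. The prolyl isomerases Fkbp2 (0.08) and Fkbp11 (-0.03) had intervals that included 0, and Sil1, the other nucleotide exchange factor of BiP, was at -0.27 (-0.40 to -0.15). The chaperones therefore ranged from Sil1 to Sdf2l1, with a median of 0.75.

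Of the disulfide enzymes, Creld2, an ER protein with EGF-like domains and isomerase activity, was at 15.9 FPKM in SD, 79.44 FPKM in HFD and 22.42 FPKM with JT003. Its log2 ratio of HFD over SD was 2.19 (2.05 to 2.35). Pdia4 rose by 1.31 (1.24 to 1.38), from 41.53 to 112.17 FPKM, and Pdia6, which acts on BiP clients, by 1.04 (0.97 to 1.12), from 54.14 to 121.67 FPKM. Just under the threshold were Pdia3, the isomerase that works with calnexin and calreticulin, at 0.97 (0.92 to 1.02) and Ero1lb, an oxidase that recharges the isomerases, at 0.95 (0.84 to 1.06). Its paralogue Ero1l was at 0.35. Txndc5 (0.08) and Erp44 (0.09), which retains oxidases in the early secretory pathway, were near 0, and P4hb, the most abundant isomerase, was at -0.18 (-0.21 to -0.16).

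Of the degradation genes, Derl3, a rhomboid-like protein of the ER membrane, was at 4.37 FPKM (117 counts) in SD, 18.97 FPKM (497 counts) in HFD and 8.54 FPKM (225 counts) with JT003. Its log2 ratio of HFD over SD was 1.98 (1.70 to 2.30). Syvn1, the ubiquitin ligase HRD1 at the centre of the retrotranslocation complex, went from 23.55 FPKM in SD to 68.52 FPKM in HFD, with a ratio of 1.46 (1.38 to 1.54). Herpud1, which binds this ligase complex, went from 113.28 to 298.5 FPKM, with a ratio of 1.27 (1.22 to 1.33). Their partners had smaller ratios, with 0.60 for the adaptor Sel1l, 0.65 for Edem1, which trims mannose from glycoproteins to be degraded, and 0.41 for Derl2. Derl1 was at -0.56 (-0.63 to -0.49) and the lectin Os9 at -0.72 (-0.77 to -0.67), the lowest ratio of the 41 genes, while Erlec1, a related lectin, was at -0.09. Os9 was at 94.14 FPKM in SD, 61.82 FPKM in HFD and 58.63 FPKM with JT003, so that both HFD libraries were low.

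The sensor group, which includes the transcription factor gene Xbp1, and the translocation genes showed no call. Xbp1 was at 0.56 (0.50 to 0.62), Atf6 at 0.43 and Ern1 at 0.28. Gene counts do not separate spliced from unspliced Xbp1. The 6 translocation genes were all above 0, from 0.34 for the signal peptidase subunit Sec11c to 0.65 for the oligosaccharyltransferase subunit Ostc. Sec61a1 and Sec61b, the channel subunits, were at 0.39 and 0.62, Ssr1 of the translocon-associated complex at 0.45 and the signal peptidase subunit Spcs2 at 0.47.

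**Figure D2:**
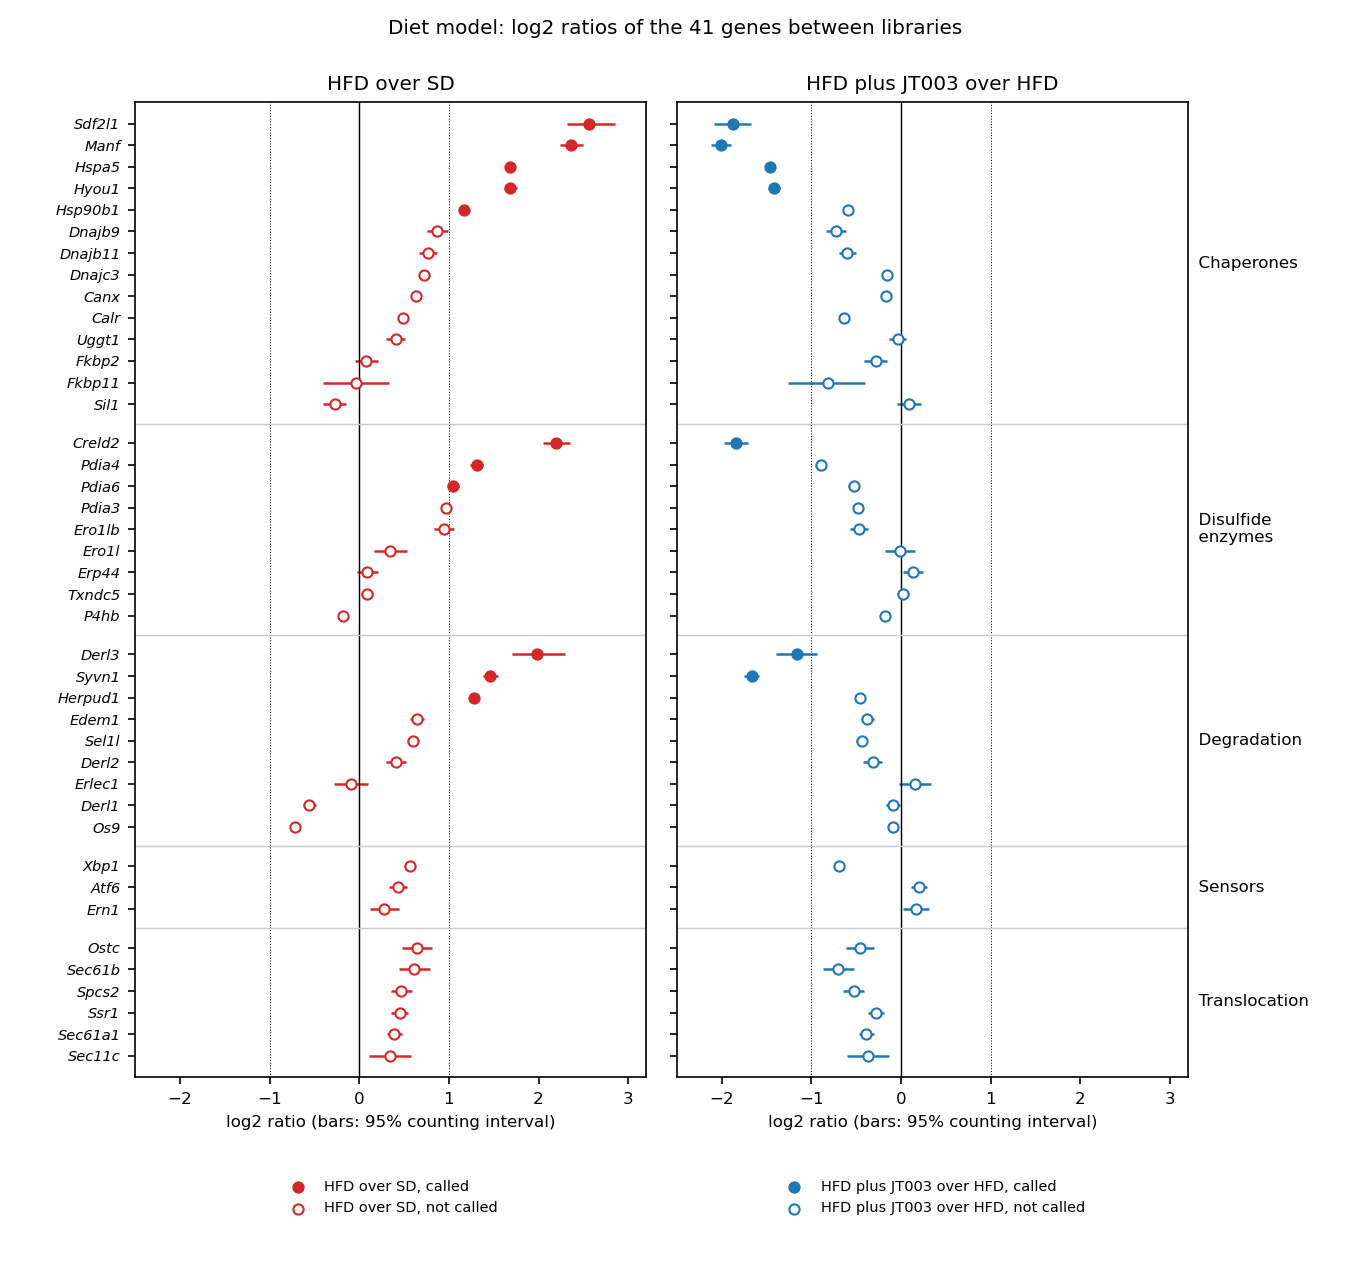
Log2 ratios of the 41 genes for HFD over SD (left) and HFD plus JT003 over HFD (right), with 95% counting intervals; filled points were called, open points were not, and dotted lines mark log2 ratios of -1 and 1. On the left 11 filled points lie above 1, led by Sdf2l1 at 2.56, and on the right 7 lie below -1, led by Manf at -2.0.

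edgeR's exact test, given a coefficient of variation between mice of 0.2 as an assumption, kept 4 of the 11 genes, Sdf2l1, Manf, Creld2 and Derl3, where it called 0.601% of all genes higher. With 0.4 it kept 0, where it called 0.0354% of all genes higher. Scaling by total reads in place of TMM factors moved the median of all genes by 0.12 for this comparison, and the ratios are relative to the TMM scale.

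JT003 treatment of the diet model was read from HFD plus JT003 over HFD, which shares the HFD library with the comparison above. In it, 0 of the 41 genes rose and 7 fell, where 0.743% of all genes were called higher and 0.884% lower. The median log2 ratio was -0.45, against -0.01 over all genes, and 35 of the 41 were below 0. The 7 that fell were Manf by 2.0, Sdf2l1 by 1.87, Creld2 by 1.84, Syvn1 by 1.66, Hspa5 by 1.46, Hyou1 by 1.42 and Derl3 by 1.16 on the log2 scale. The largest adjusted p among the 7 in the exact binomial test was 6.62e-24. All 7 are among the 11 that were higher in HFD than in SD. Because both comparisons use the HFD library, a high value in it alone gives both calls. The overlap is therefore not separate evidence of a reversal, and it was not counted over all genes. The other 4 had ratios of -0.90 (Pdia4), -0.59 (Hsp90b1), -0.53 (Pdia6) and -0.45 (Herpud1). With an assumed coefficient of variation of 0.2 edgeR's exact test called 0 of the 41, and 0.0819% of all genes lower.

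By role, the ranges of the ratios with JT003 overlapped, and differences between the groups were not tested. The chaperones had a median of -0.62, the disulfide enzymes of -0.47, the degradation genes of -0.37 and the translocation genes of -0.42. The 6 translocation genes were all below 0, from -0.70 for Sec61b to -0.28 for Ssr1. Xbp1 was at 81.14 FPKM in SD, 130.43 FPKM in HFD and 81.63 FPKM with JT003, and its log2 ratio with JT003 was -0.69 (-0.75 to -0.63). Atf6 at 0.20 and Ern1 at 0.16 were on the other side of 0. Genes at or above 0 with JT003 also included Erlec1 (0.16), Erp44 (0.13), Sil1 (0.09) and Txndc5 (0.02).

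Set against SD directly, HFD plus JT003 showed 0 genes of the 41 called in either direction, where 3.16% of all genes were called higher and 2.76% lower. The median log2 ratio was 0.19. The highest ratios were 0.82 for Herpud1 (0.77 to 0.88) and for Derl3 (0.50 to 1.16), and the lowest were -0.84 for Fkbp11 and -0.81 for Os9. Of all 41 genes, 26 had intervals above 0 in this comparison and 9 below. Of the 11 genes high in HFD, 10 had intervals above 0, from 0.23 for Hspa5 upwards, and Syvn1 was at -0.21 (-0.31 to -0.10). The 11 were chosen by a ratio over the same SD library, so a low value in it raises both ratios.

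The log2 ratios of HFD over SD were set beside the promoter motifs as a description. The 13 genes with ERSE, ERSE-II or UPRE letters had a median of 1.04, from 0.08 for Txndc5, the gene with UPRE, to 2.19 for Creld2. The 19 genes with a window but no motif had a median of 0.45, from -0.72 to 2.56. The 11 genes that rose comprised 7 with a motif (Hspa5, Hsp90b1, Pdia6, Creld2, Syvn1, Herpud1 and Derl3), 2 without (Sdf2l1 and Pdia4) and 2 with no window (Manf and Hyou1). Sdf2l1, with the highest ratio of all, thus had none of these letters in its window. With JT003 the medians were -0.59 with a motif and -0.37 without. For CCl4 over corn oil the 10 ERSE genes had a median of -0.29 and ranged from -0.63 to 0.50. With the remaining CCl4 reads, which are described with the CCl4 model, their median was 0.26 and 9 of the 10 were above 0. The ERSE letters were also in the windows of 14 genes outside the set. The 13 of these with reads in SD or HFD had a median of 0.37 for HFD over SD, and ranged from -2.26 for Acacb, an acetyl-CoA carboxylase, to 1.495 for Xlr3a. Many of the 13 had few reads. The median is the ratio of Spats2l, with 17 counts in SD and 24 counts in HFD. Acacb, Xlr3a and Spats2l were named after their values were seen.

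**Figure D3:**
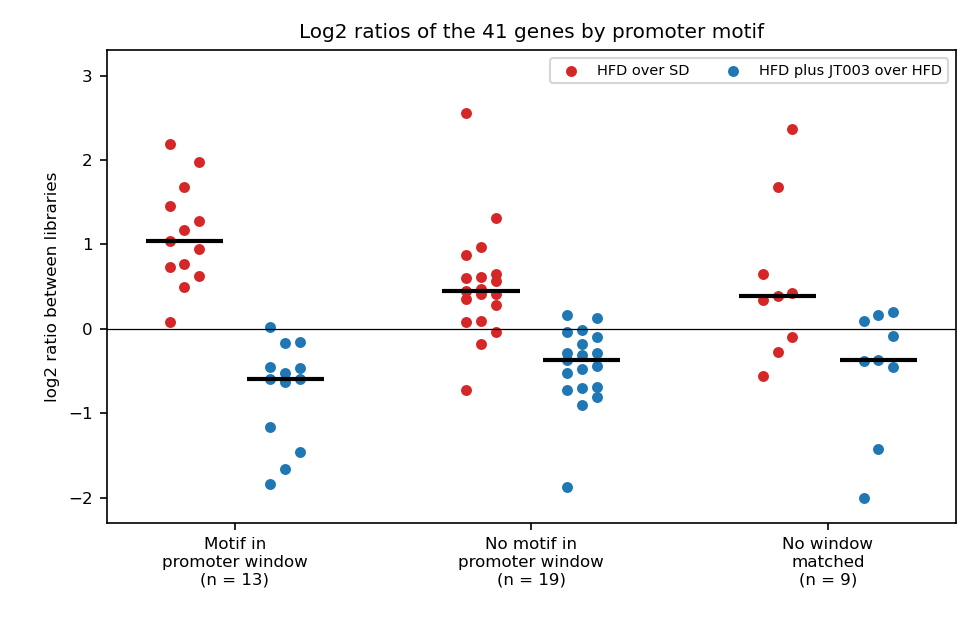
Log2 ratios of the 41 genes in the diet comparisons (HFD over SD, and HFD plus JT003 over HFD), split by whether the promoter window held ERSE, ERSE-II or UPRE letters; each point is a gene and the black bars are medians. The median for HFD over SD was 1.04 with a motif (n = 13) and 0.45 without (n = 19), and the points overlap.

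The further genes of ER function were counted over a list of 55 genes in the files, which holds other subunits of the translocon, the glycosylation and export machinery and other degradation factors. Their median log2 ratio of HFD over SD was 0.07, with 1 called higher, Hspa13, an HSP70 relative of the microsome (1.04), and 0 lower. Of all genes, 2.92% were called higher and 2.46% lower. With JT003 their median was -0.11, with 1 called lower, Creb3l2, a membrane-bound transcription factor related to ATF6 (-1.09). Of all genes, 0.743% were then called higher and 0.884% lower. The summed level of the 55 genes was 2301 FPKM in SD, 2356 FPKM in HFD and 2163 FPKM with JT003. It differed between the diet libraries less than that of the 41 genes did (2281, 3991 and 2648 FPKM). The list of 55 was chosen with earlier results of these data known, so this contrast is a description and was not tested.

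The PERK arm was followed over 9 genes, of which 3 were called higher and 1 lower in HFD over SD. Of all genes, 2.92% were called higher and 2.46% lower. Ddit3, which encodes the transcription factor CHOP, was at 3.57 FPKM in SD, 16.01 FPKM in HFD and 5.05 FPKM with JT003. HFD was the high library, with a log2 ratio of 2.01 over SD, and Ddit3 fell by 1.70 with JT003. Chac1, a glutathione-degrading target of ATF4, and Atf3 had ratios of 1.56 and 1.54 over SD. Asns, the asparagine synthetase and a target of ATF4, was at 5.26 FPKM in SD, 0.42 FPKM in HFD and 0.73 FPKM with JT003, and fell by 3.61 in HFD. Atf4 itself was at 45.01, 45.1 and 52.79 FPKM. The genes of this arm thus did not share a direction. In CCl4 over corn oil 2 of the 9 were called higher and 1 lower, where 4.76% of all genes were called higher and 2.41% lower. The ratios ranged from -2.33 to 3.61. In CCl4 plus JT003 over CCl4 1 was called higher and 2 lower, where 1.91% of all genes were called higher and 2.51% lower.

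In the CCl4 model, CCl4 over corn oil had 2 of the 41 genes called higher and 0 lower, where 4.76% of all genes were called higher and 2.41% lower. The median log2 ratio was 0.09, against 0.00 over all genes. The called genes were Ern1 with 1.40 (1.09 to 1.74) and Ostc with 1.04 (0.88 to 1.21), and the larger adjusted p of the exact binomial test was 1.36e-19. Ern1 was at 1.33 FPKM (104 counts) in corn oil, 4.17 FPKM (338 counts) in CCl4 and 2.23 FPKM (174 counts) with JT003. Ostc was at 20.13, 48.89 and 34.23 FPKM in the same order. CCl4 was the high library for both.

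The chaperones that led in HFD did not lead here. Hspa5 was at 191.53 FPKM in corn oil, 154.81 FPKM in CCl4 and 117.31 FPKM with JT003, with a log2 ratio of CCl4 over corn oil of -0.54 (-0.59 to -0.50). Hsp90b1 (-0.63), Calr (-0.61), Dnajb11 (-0.46), Pdia3 (-0.44), Creld2 (-0.43), Syvn1 (-0.41), Sdf2l1 (-0.32) and Manf (-0.24) also had intervals below 0. These ratios are relative to the TMM scale, and scaling by total reads raised the ratios of this comparison by about 0.23. Manf was at 27.32 FPKM in corn oil and 27.19 FPKM in CCl4, and Sdf2l1 at 12.33 and 11.6 FPKM. Above 0 were the translocation genes apart from Sec11c, with Sec61b at 0.70, Spcs2 at 0.59 and Sec61a1 at 0.46, and Txndc5 (0.62), Edem1 (0.60) and P4hb (0.32). P4hb was at 363.76 FPKM in corn oil, 534.58 FPKM in CCl4 and 396.56 FPKM with JT003.

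The authors also deposited a pooled column of CCl4 counts, which sums to 2.97 times the CCl4 library and appears, from its values, to include it. Which libraries were pooled is not stated. The comparison with it was added after the data were seen. The reads left after subtracting the CCl4 library (remaining CCl4) were used as a second view of the CCl4 condition. Against the CCl4 library, 0 of the 41 genes were called in the remaining reads, where 1.44% of all genes were called higher and 0.229% lower. The median log2 ratio was 0.36, and 35 of the 41 were above 0. Sdf2l1 (0.86), Manf (0.84) and Hspa5 (0.83) differed most. The CCl4 library was thus low in these chaperones beside other CCl4 reads, and the results of this model are given with both.

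With the remaining reads in place of the CCl4 library, 4 genes were higher than in corn oil and 0 lower, where 7.29% of all genes were called higher and 2.54% lower. They were Ostc (1.43), Ern1 (1.28), Spcs2 (1.10) and Fkbp11 (1.02), and the median was 0.37. The log2 ratio of Hspa5 was 0.29 (0.26 to 0.32) in place of -0.54, so that its direction depended on which CCl4 reads were used. That of Manf went from -0.24 to 0.59 and that of Sdf2l1 from -0.32 to 0.54.

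**Figure D4:**
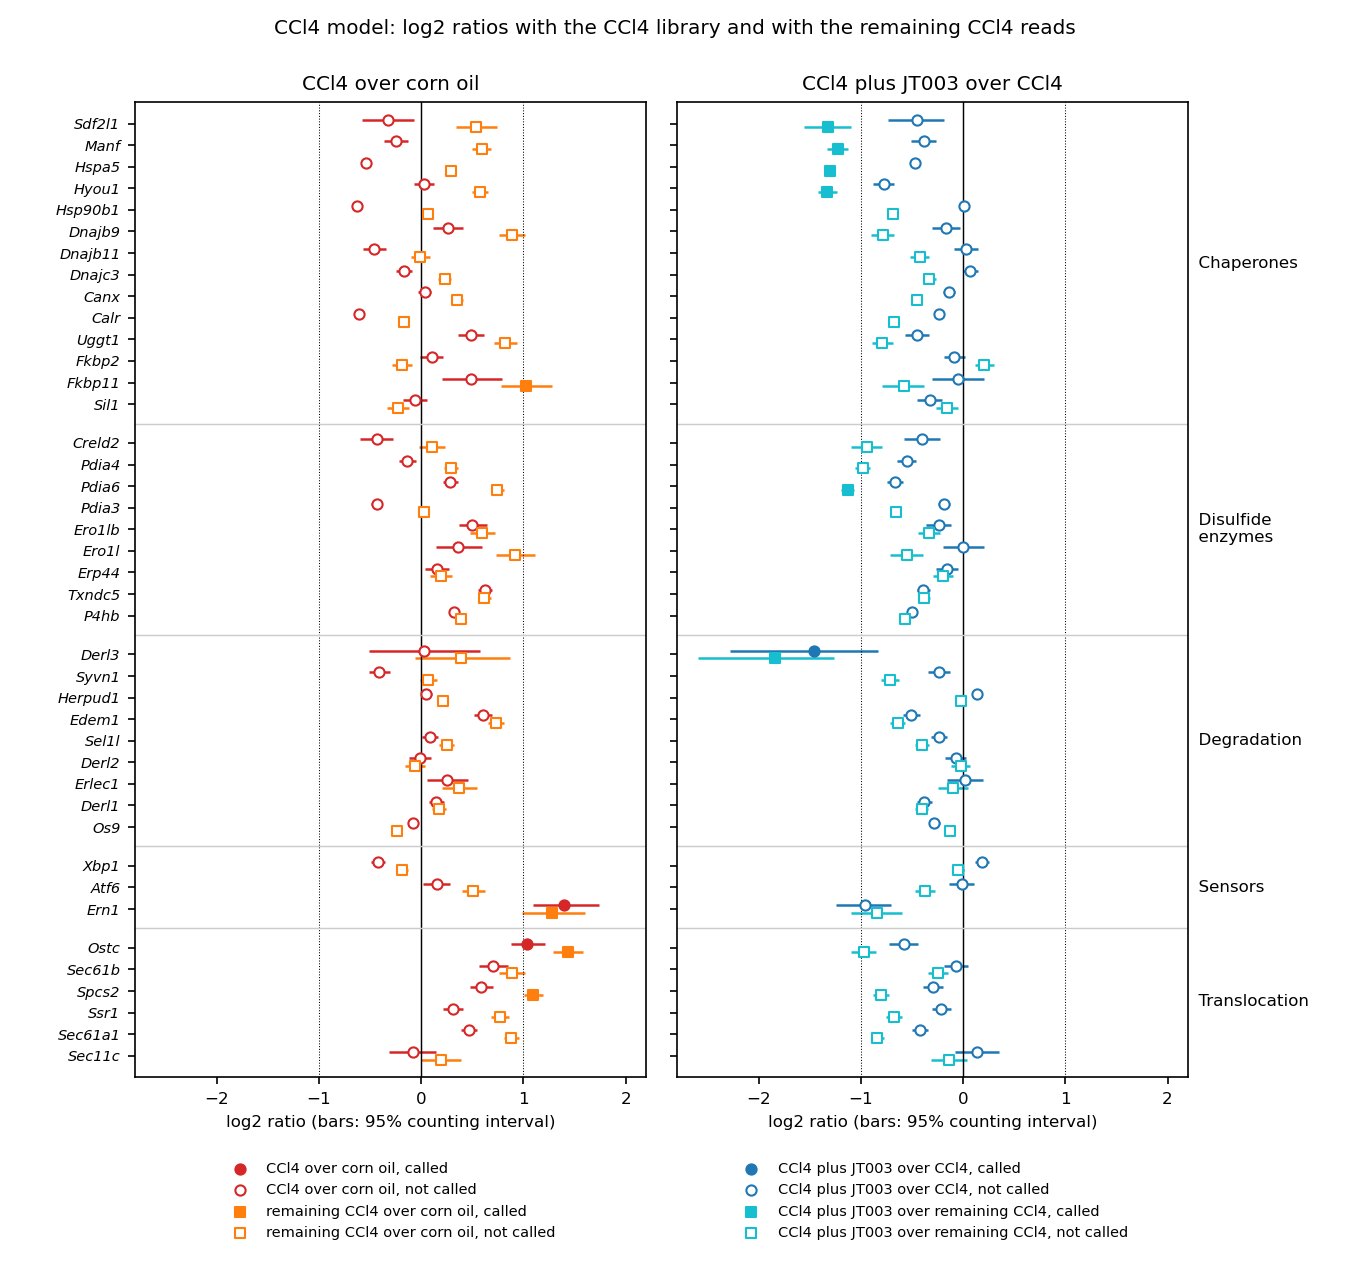
Log2 ratios of the 41 genes in the CCl4 model, for CCl4 over corn oil (left) and CCl4 plus JT003 over CCl4 (right), with the CCl4 library (circles) and with the remaining pooled CCl4 reads (squares); bars are 95% counting intervals and filled points were called. The squares lie to the right of the circles on the left panel for most chaperones, for example Hspa5 at 0.29 against -0.54, and to their left on the right panel.

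For CCl4 plus JT003 over the CCl4 library, 0 of the 41 genes rose and 1 fell, where 1.91% of all genes were called higher and 2.51% lower. The median log2 ratio was -0.24 and 33 of the 41 were below 0. The gene that fell was Derl3, from 66 counts (2.47 FPKM) to 23 counts (0.89 FPKM), by 1.45 on the log2 scale, with an interval from -2.28 to -0.83 and an adjusted p of 2.61e-05 in the exact binomial test. Ern1 (-0.96), Hyou1 (-0.78), Pdia6 (-0.67), Ostc (-0.58) and Pdia4 (-0.55) followed it without a call. Over the remaining CCl4 reads, 0 genes rose and 6 fell, where 1.28% of all genes were called higher and 3.36% lower, and the median was -0.58. These were Derl3 (-1.84), Hyou1 (-1.33), Sdf2l1 (-1.32), Hspa5 (-1.30), Manf (-1.22) and Pdia6 (-1.13). At an assumed coefficient of variation of 0.2 edgeR's exact test, run with the CCl4 library, called 0 of the 41 in the CCl4 model. It called 1.4% of all genes higher in CCl4 over corn oil, 0.736% lower with JT003 and 0.467% lower in CCl4 plus JT003 over corn oil.

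Against corn oil, CCl4 plus JT003 had 0 of the 41 genes higher and 2 lower, where 3.23% of all genes were called higher and 1.72% lower. They were Derl3 (-1.42) and Hspa5 (-1.01, with an interval from -1.06 to -0.96). The median was -0.10 and turned to 0.20 with total reads in place of TMM factors, a scaling that moved all genes by 0.30 in this comparison, and then 0 of the 41 and 1.02% of all genes were called lower.

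The models were compared by the difference of their log2 ratios, tested over 4 libraries with counting error. The model change (HFD over SD, less CCl4 over corn oil) was higher for 13 of the 41 genes and lower for 1, where 3.86% of all genes were called higher and 4.52% lower. The 13 were 7 chaperones, 3 disulfide enzymes and 3 degradation genes, led by Sdf2l1 with a difference of 2.89 (2.53 to 3.24), Creld2 with 2.63, Manf with 2.61 and Hspa5 with 2.23. The 1 lower was Ern1 with -1.11 (-1.47 to -0.76). The control libraries of the models also differed for these genes. In SD and corn oil Sdf2l1 was at 6.19 and 12.33 FPKM, Creld2 at 15.9 and 25.43 FPKM and Manf at 13.09 and 27.32 FPKM. Hspa5 was at 157.92 and 191.53 FPKM. Ern1 was at 6.74 FPKM in SD and 1.33 FPKM in corn oil, with 4.17 FPKM in CCl4. The part of the controls in these differences was not tested. The translocation genes had a median difference of -0.08 and the further ER genes of -0.16. With the remaining CCl4 reads, 10 of the 13 were still called, with Hspa5 at 1.40 and Sdf2l1 at 2.03, while Dnajb11 (0.77), Calr (0.66), Pdia3 (0.95) and Ern1 (-0.998, just inside the threshold) were not. Fkbp11 (-1.05) was then called lower in place of Ern1. The share of all genes called in this test with the remaining reads was not counted.

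The JT003 change (HFD plus JT003 over HFD, less CCl4 plus JT003 over CCl4) was higher for 1 gene, Ern1 (1.12), and lower for 4, Manf (-1.62), Creld2 (-1.44), Syvn1 (-1.43) and Sdf2l1 (-1.41), where 2.18% of all genes were called higher and 1.73% lower. With the remaining CCl4 reads 0 of the 4 were called, at -0.78, -0.89, -0.95 and -0.55, and Ern1 was at 1.01. Their directions were kept, with intervals that lay below 0, the nearest being that of Sdf2l1 (-0.85 to -0.25). With the authors' pooled CCl4 counts 3 of the 4 were called, Syvn1 (-1.09), Creld2 (-1.05) and Manf (-1.005), and Sdf2l1 was at -0.78. The size of the difference, and with it the call, thus depended on the CCl4 reads used. The shares of all genes called in this test with the remaining and with the pooled reads were not counted. JT003 was given at 500 µg/kg in both models, for 4 weeks in the diet model and 3 weeks in the CCl4 model.

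**Figure D5:**
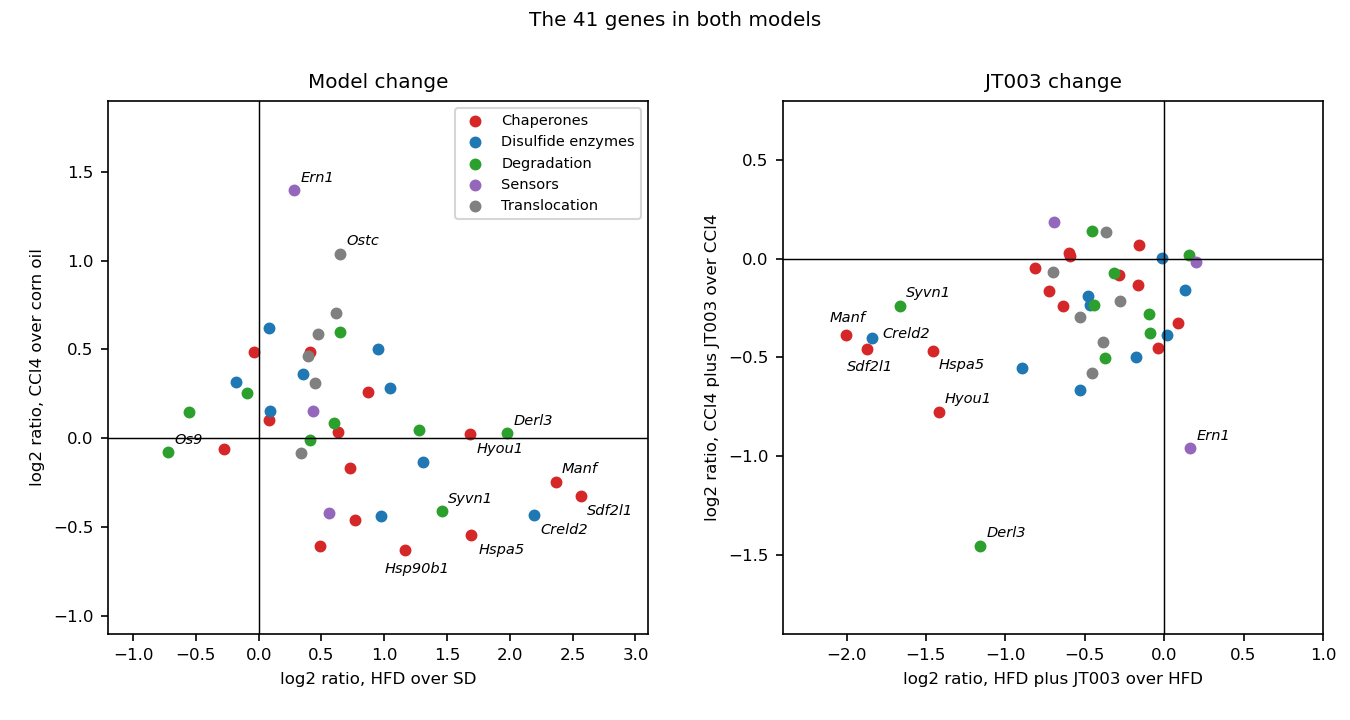
Log2 ratios of the 41 genes in the diet model (horizontal) against the CCl4 model (vertical), for the model change (left) and the change with JT003 (right), coloured by role; each point is a gene and the CCl4 axis uses the CCl4 library. On the left Sdf2l1, Manf, Creld2 and Hspa5 lie far to the right and below 0, at 2.56, 2.36, 2.19 and 1.69 against -0.32, -0.24, -0.43 and -0.54, and Ern1 lies at 0.28 against 1.40. The ratios are on the TMM scale, and scaling by total reads raised those of CCl4 over corn oil by about 0.23.

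Markers of other cell types also moved between the libraries. The summed level of 11 stellate cell and myofibroblast markers was 20.5 FPKM in SD, 50.9 FPKM in HFD, 30.1 FPKM in HFD plus JT003, 23.8 FPKM in corn oil, 82.5 FPKM in CCl4 and 43.9 FPKM with CCl4 and JT003. It was thus highest in CCl4. The 10 macrophage markers summed to 30.5 FPKM in corn oil and to 113 to 166 FPKM in the other libraries. The 11 plasma cell and B cell markers, whose cells also have a large ER, summed to 106.1 FPKM in SD, 55.6 FPKM in HFD, 59.0 FPKM in HFD plus JT003 and 86.1 to 107.2 FPKM in the CCl4 model. Most of this was Sdc1, a syndecan of epithelial cells too, and Jchain was at 0.78 to 1.53 FPKM. Of 5 pancreatic acinar markers in the files, Cela1, which liver also expresses, was at 4.55 to 14.3 FPKM, highest in HFD, and 2 or 3 of the 5 had no read in 5 of the 6 libraries. Sdc1, Jchain and Cela1 were named after their values were seen. The part of these cells in the levels of the ER genes was not tested.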

How the data were processed

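Liver RNA of 6 libraries, 1 per condition, was sequenced on a BGISEQ-500 instrument. For each gene and library the authors deposited FPKM values beside expected counts. The submitters' processing notes name HISAT, Bowtie2, RSEM and the build mm9, without versions, and strandedness is not stated. The 4 comparison tables deposited by the authors hold fold changes and p-values, which were not used. A pooled CCl4 column of expected counts in one of them was used, and 7 other expression columns were not.

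Expected counts were rounded. Library sizes were scaled within each model, which has 3 libraries, by the TMM method of edgeR 4.0.16 (R 4.3.3). Log2 ratios had a prior count of 2. Reads of 2 libraries were compared by a two-sided exact binomial test, adjusted by Benjamini-Hochberg over genes with at least 1 read, and differences between models by a two-sided normal test with counting error. Intervals (95%) and p-values cover counting error only, since there are no replicates. The steps were tested on simulated data. Alternatives used DESeq2 1.42.0 size factors, total reads, TMM over all 6 libraries, other prior counts, filters and thresholds, FPKM plus 1, an assumed spread in edgeR's exact test, and the pooled CCl4 counts. Python 3.11.15, numpy 2.4.6, pandas 2.3.3, scipy 1.17.1 and matplotlib 3.10.9 were used.

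Every gene of the set could be named. Of other lists, counts were given and single genes named only where called, at most 4 per list and comparison with at least 100 counts, and any gene of the PERK arm. Exceptions were Alb and the genes stated above as named after their values were seen, which were named without regard to this rule. Genes and lists were chosen with earlier results of these data known. Promoter sequences came from RefSeq (GRCm38.p6), a build other than that of the counts, and were joined by gene identifier.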

Additional observations from a re-analysis of the deposited data

Results flagged for a closer look

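For 14 of the 41 genes the model change (HFD over SD, less CCl4 over corn oil) differed between the models in the test of the difference over 4 libraries, which covers counting error only. It was higher for 13 and lower for 1, where 3.86% of all genes were called higher and 4.52% lower. The log2 differences of the chaperones were 2.89 for Sdf2l1, 2.61 for Manf, 2.23 for Hspa5, 1.80 for Hsp90b1, 1.66 for Hyou1, 1.22 for Dnajb11 and 1.10 for Calr. Those of the disulfide enzymes were 2.63 for Creld2, 1.45 for Pdia4 and 1.41 for Pdia3. Those of the degradation genes were 1.95 for Derl3, 1.87 for Syvn1 and 1.23 for Herpud1, and that of Ern1 was -1.11. The SD and corn oil levels of Sdf2l1, Creld2, Manf, Hspa5 and Ern1 also differed, as given above. With the remaining CCl4 reads in place of the CCl4 library, Dnajb11 (0.77), Calr (0.66), Pdia3 (0.95) and Ern1 (-0.998) were no longer called, and Fkbp11 (-1.05) was called lower. The share of all genes called with these reads was not counted.

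For 5 genes the change with JT003 differed between the models. It was higher for 1 and lower for 4, where 2.18% of all genes were called higher and 1.73% lower. The log2 differences were -1.62 for Manf, -1.44 for Creld2, -1.43 for Syvn1, -1.41 for Sdf2l1 and 1.12 for Ern1. With the remaining CCl4 reads they were -0.78, -0.89, -0.95, -0.55 and 1.01, so that only Ern1 of the 5 was still called, while the other 4 kept their direction with intervals below 0. With the authors' pooled CCl4 counts, 3 of those 4 and Ern1 were called. The shares of all genes called with the remaining and with the pooled reads were not counted.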

How the results depend on the processing

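No paired analysis was possible because each condition has 1 library, and no library was left out for the same reason. With 1 library per condition, the depth limits counting error but shows nothing of the spread between mice. No result turned its call to the other direction.

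With a log2 threshold of 0.5, HFD over SD had 22 genes of the 41 higher and 2 lower (6.37% and 6.83% of all genes), and HFD plus JT003 over HFD 0 higher and 17 lower (2.69% and 2.95%). HFD plus JT003 over SD had 7 higher and 3 lower (7.61% and 8.51%), and CCl4 over corn oil 7 higher and 3 lower (9.25% and 6.98%). CCl4 plus JT003 had 0 higher and 7 lower over CCl4 (5.82% and 7.15%), and 1 higher and 11 lower over corn oil (6.02% and 5.34%). The model change was then higher for 19 and lower for 4 (7.68% and 10.2%), and the JT003 change higher for 1 and lower for 12 (5.85% and 4.49%). In edgeR's exact test with an assumed coefficient of variation of 0.2, HFD over SD kept 4 higher, and every other comparison 0. With 0.4 it was 0 in all 6 comparisons.

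With total reads the median log2 ratio was 0.725 for HFD over SD, 0.33 for HFD plus JT003 over SD, 0.32 for CCl4 over corn oil and 0.20 for CCl4 plus JT003 over corn oil, where 0 genes were then lower. The share of higher among all called genes moved from 54.2% to 65.5% in HFD over SD, from 53.4% to 66.6% in HFD plus JT003 over SD, from 66.4% to 81.9% in CCl4 over corn oil and from 65.2% to 85.7% in CCl4 plus JT003 over corn oil. With FPKM plus 1 the median was 0.32 for HFD plus JT003 over SD, 0.30 for CCl4 over corn oil and 0.20 for CCl4 plus JT003 over corn oil. With FPKM plus 1, 0 genes were lower in CCl4 plus JT003 over CCl4 and over corn oil, 0 had a lower model change and 0 a higher JT003 change.

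With the authors' pooled CCl4 counts the median was 0.27 for CCl4 over corn oil, and CCl4 plus JT003 over CCl4 had 4 lower and a median of -0.49. The share of all genes called with the pooled counts was not counted. The remaining CCl4 reads, chosen after seeing the data, gave 4 higher (7.29% of all genes) and a median of 0.37 for CCl4 over corn oil. For CCl4 plus JT003 over CCl4 they gave 6 lower (3.36% of all genes) and a median of -0.58. They also gave 0 with a lower JT003 change. The cause of these shifts was not tested. A prior count of 0.5 and a filter of 10 counts left all 246 values for single genes on the same side of the threshold.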
